A study of Homo sapiens with 12 samples.

Results

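The chaperone genes CRYAB, HSPB1, HSPA8, HSP90AA1, HSP90AB1, HSPA5, HSPA1A, HSPD1, HSPH1 and DNAJB1 were followed through 12 RNA-sequencing libraries of glioblastoma cells. These 10 genes were chosen by name, with results of the same libraries known, and each symbol matched 1 of the 60107 Ensembl gene IDs in the count table. Their levels and their differences between these groups are therefore given as a description, with standard errors and no p-value. The libraries were made from total RNA of U251P and U251T cells, which carry the name of U251, an established human glioblastoma line. The labels do not say how U251P and U251T are related or derived. The U251T libraries lacked several markers that U251P had, as given below, and whether they hold cells of the labelled line was not tested, so every U251T value is that of the libraries so labelled. All cells were grown with 10% serum, starved of serum for 16 h and returned to full medium for the final 24 h, with the solvent DMSO (vehicle) or with carmofur, a fluorouracil prodrug that also inhibits acid ceramidase. This timing is that of the labels, whereas the study's own account has carmofur present during the serum starvation too, and the sources used here do not settle which holds. Each of the 4 combinations of line and treatment had 3 libraries. The question of the series was which transcripts change with carmofur under conditions that match a migration assay.

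Chaperones bind unfolded proteins and keep them from clumping or help them fold. CRYAB and HSPB1 are small heat shock proteins, which hold unfolded proteins without using ATP. HSPA8, HSPA1A, HSPA5 and their relative HSPH1 belong to the ATP-driven HSP70 and HSP110 families, HSP90AA1 and HSP90AB1 are the cytosolic HSP90 proteins, HSPD1 is the mitochondrial chaperonin, and DNAJB1 is a J-domain partner that hands clients to HSP70. Heat shock factor 1 raises many of these genes under proteotoxic stress by binding repeated GAA units in inverted orientation, while HSPA5 is raised by endoplasmic reticulum stress through a separate element. CRYAB is known for high levels in astrocytic tumours.

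The bases before 1 start site a gene are shown for genes whose levels are described next and whose regulatory motifs can be read, from RefSeq on GRCh38.p14, 5′ to 3′ on the gene's own strand. HSP90AB1 and DNAJB1 have 3 start sites each in that table. The windows printed for them were picked because they hold a match, and the 2 other windows of each gene held none. Only bases outside annotated exons are printed. Capitals mark matches to GAANNTTC or TTCNNGAA, a pair of inverted heat shock units, or in HSPA5 to the endoplasmic reticulum stress element.
HSPB1, chr7:76302423-76302543, + strand: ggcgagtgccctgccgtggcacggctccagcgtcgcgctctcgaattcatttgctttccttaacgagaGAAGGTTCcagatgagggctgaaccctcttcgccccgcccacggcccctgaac
HSPA1A, chr6:31815293-31815463, + strand: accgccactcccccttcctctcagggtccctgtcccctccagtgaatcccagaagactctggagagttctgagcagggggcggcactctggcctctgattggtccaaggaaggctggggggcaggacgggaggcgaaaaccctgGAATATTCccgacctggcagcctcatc
HSPA1B, chr6:31827488-31827734, + strand: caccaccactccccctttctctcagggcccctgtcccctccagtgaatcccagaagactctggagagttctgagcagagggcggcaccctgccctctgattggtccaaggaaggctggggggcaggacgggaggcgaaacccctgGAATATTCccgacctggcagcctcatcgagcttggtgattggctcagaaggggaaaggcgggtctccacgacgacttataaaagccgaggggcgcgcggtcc
HSP90AB1, chr6:44247693-44247865, + strand: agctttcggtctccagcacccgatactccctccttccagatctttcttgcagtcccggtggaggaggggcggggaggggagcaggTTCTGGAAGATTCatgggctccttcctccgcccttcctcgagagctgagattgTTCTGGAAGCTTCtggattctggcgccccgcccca
DNAJB1, chr19:14518421-14518647, - strand: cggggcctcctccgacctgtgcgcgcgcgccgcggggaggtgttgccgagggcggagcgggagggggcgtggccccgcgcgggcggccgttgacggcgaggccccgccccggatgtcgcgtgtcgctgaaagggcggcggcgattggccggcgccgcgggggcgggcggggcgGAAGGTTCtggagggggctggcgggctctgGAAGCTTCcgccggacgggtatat
HSPA5, chr9:125241344-125241593, - strand: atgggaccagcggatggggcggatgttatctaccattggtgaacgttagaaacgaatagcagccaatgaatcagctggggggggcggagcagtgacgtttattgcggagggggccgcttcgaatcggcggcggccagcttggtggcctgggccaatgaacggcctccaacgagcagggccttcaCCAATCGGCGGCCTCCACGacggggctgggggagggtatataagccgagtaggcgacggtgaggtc

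Among the 250 bases before 35116 RefSeq start sites, 11.6% held a paired heat shock unit on either strand. Of the 15 windows of the 9 chaperone genes with an entry 7 did, 1 in each of 7 genes (HSPB1, HSPA8, HSP90AA1, HSP90AB1, HSPA1A, HSPD1 and DNAJB1). A run of 3 units, in which GAA and TTC alternate with NN between them, stood in 0.441% of all windows and in 4 of the 15, again 1 a gene (HSPA8, HSP90AA1, HSP90AB1 and HSPD1). These longer matches contain the shorter ones, so a window with a run is also counted among the 7. In the HSP90AB1 stretch above, each of the capital runs is such a longer match. The endoplasmic reticulum element stood in 0.0740% of all windows and, among the 15, in that of HSPA5 alone. HSPH1 held no match to any of these letters in its window, and CRYAB had no entry. HSPA1A and HSPA1B are neighbouring copies on chromosome 6, and their printed stretches share the capital unit and most other bases. Over the full 250-base windows 93.6% of aligned positions were identical.

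The U251T libraries stood apart from the U251P libraries in ways that touch every comparison of the lines. The U251P libraries held 3295045 to 6350873 counts each, and the U251T libraries 383633 to 2817379. Pseudogenes took 0.272% to 0.307% of the counts in U251P and 10.8% to 12.4% in U251T, and mitochondrially encoded genes 19.5% to 26.2% against 0.354% to 0.881%. Of the glial and glioblastoma markers, NES was at 376 to 459 CPM (counts scaled to a library total of 1e+06) in U251P and at 0 to 2.61 CPM in U251T, and SOX2 at 97.7 to 161 CPM against 0 to 1.03 CPM. GFAP ran the other way, with 0 to 0.303 CPM among the U251P libraries and 20.9 to 83.0 CPM among those of U251T. VIM was abundant in both, at 2516 to 3252 CPM and 7046 to 13534 CPM. The summed level of the 4 fibroblast markers was 4.54 to 7.90 CPM in U251P and 1509 to 2348 CPM in U251T, with 3 of the 4 counted there. The sums of some marker lists also moved with carmofur within U251T without overlap of the groups, where 32.3% of 7204 genes had no overlap. Other sums overlapped between vehicle and carmofur. These were the immune (8.52 to 20.0 and 18.2 to 18.6 CPM), epithelial (5.32 to 17.7 and 6.49 to 13.0 CPM), oligodendrocyte and endothelial sums. The fibroblast sum was 1509 to 1820 CPM with vehicle and 2213 to 2348 CPM with carmofur. The sum of the 12 glioblastoma and astroglial markers was 11731 to 14204 CPM with vehicle and 7843 to 9908 CPM with carmofur. VIM alone was at 7046 to 13534 CPM over these libraries, and 4 of the 12 had no count in either group. The 4 neuron markers summed to 2.48 to 12.3 CPM and 15.8 to 29.9 CPM. With carmofur 2 of these 4 were counted, and 3 counts there are 2.78 to 7.82 CPM. The sum of 8 genes abundant in most human cell lines was 6916 to 7451 CPM with vehicle and 10251 to 10678 CPM with carmofur. The part that these differences in library make-up play in the chaperone levels and in their differences with carmofur was not tested. In such bulk libraries fewer cells that express a gene and less of its RNA per cell cannot be told apart. U251T carmofur replicate 3 was the shallowest library, and results that rest on it are given with and without it.

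Together the 10 genes took 1.51% to 1.82% of all counts in U251P and 0.374% to 0.450% in U251T, ranges that did not overlap. By the counts of the genes alone CRYAB was the member that stood higher in U251T. HSPB1, HSP90AA1, HSP90AB1, HSPD1, HSPH1 and DNAJB1 stood lower there, while the vehicle libraries of the lines overlapped for HSPA8 and HSPA5. Once the counts of its pseudogene copies were added, HSPA8 stood higher in U251T too (1.05 on the log2 scale). Its summed level with vehicle was then 413 to 660 CPM in U251P and 1000 to 1154 CPM in U251T. With carmofur the 8 members that could be fitted in U251P differed by at most 0.27 on the log2 scale. In U251T CRYAB (2.72) and HSPB1 (2.08, or 1.06 with the counts of its pseudogene copies added) were higher than with vehicle. HSPA8 (-0.53) and HSPA5 (-0.46) were lower. These 4 of 8 passed an adjusted p under 0.05 in edgeR, where 17.1% of 7204 genes did. HSPD1 (-0.40) and HSP90AB1 (-0.31) did not pass in this fit, but HSPD1 did with each other edgeR scaling and filter. In the test of the difference between the lines in these effects HSPB1 alone of the 9 members fitted passed, where 4.28% of 13070 genes did. It did not pass with the copies added or without U251T vehicle replicate 2.

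**Figure D1:**
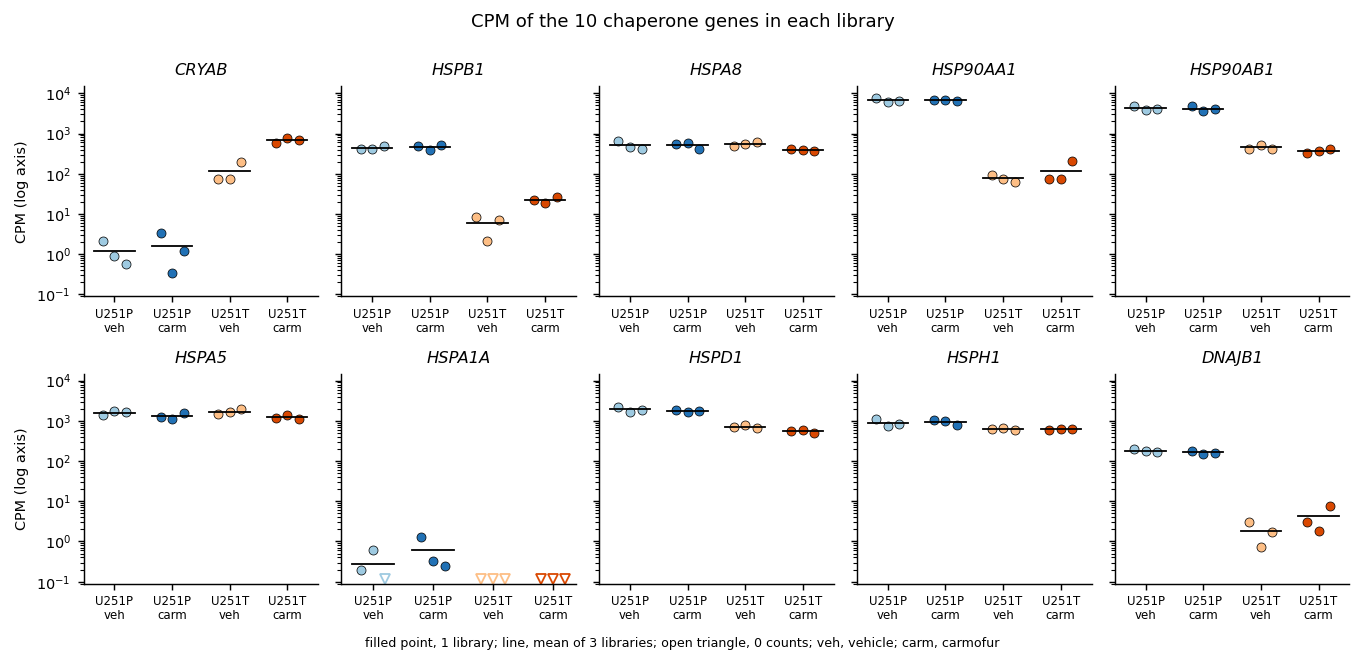
Level of each of the 10 chaperone genes in CPM on a log axis, by line and treatment. Each filled point is 1 library, each line the mean of 3 libraries and each open triangle a library with 0 counts. CRYAB was at most 3.31 CPM in U251P and at least 73.1 CPM in U251T, and the U251T carmofur libraries of CRYAB and HSPB1 all lay above those with vehicle.

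CRYAB, also called alpha B-crystallin, lies on chromosome 11 (chr11:111908565-111923722, GRCh38, minus strand). In U251P its counts were 11, 3 and 3 in the vehicle libraries and 21, 2 and 5 in the carmofur libraries, which is 0.570 to 2.17 CPM and 0.336 to 3.31 CPM. Those groups overlapped, and the gene was too low in U251P to pass the filter on low counts. The ratio of the summed counts per total, carmofur over vehicle, was 1.36, with a 95% exact counting interval from 0.721 to 2.66.

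In U251T CRYAB had 73.8, 73.1 and 196 CPM with vehicle and 570, 793 and 683 CPM with carmofur. Every carmofur library was above every vehicle library, and vehicle replicate 3 was the highest of its group. The fitted difference was 2.72 ± 0.26 on the log2 scale (SE, n = 3 and 3), and it ranged from 2.47 to 3.18 as each library was left out. By size it ranked 13 from the highest of the 7204 genes fitted in U251T.

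Between the lines in vehicle, CRYAB differed by 6.29 ± 0.39 on the log2 scale, higher in U251T. The ratio of summed counts, 413 in U251T against 17 in U251P, was 70.7 after division by the totals, with a counting interval from 43.6 to 122. HSPB2, HSPB2-C11orf52 and C11orf52 overlap CRYAB on the opposite strand, and all of them had 0 counts in the 12 libraries.

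HSPB1, or HSP27, partners CRYAB in mixed oligomers and lies at chr7:76302544-76304295. Its U251P levels were 413, 415 and 502 CPM with vehicle and 501, 394 and 508 CPM with carmofur. These groups overlapped, with a fitted difference of 0.10 ± 0.12. In U251T it was a low-count gene, with 11, 6 and 4 counts in the vehicle libraries and 21, 20 and 10 in those given carmofur. In CPM these were 8.46, 2.13 and 7.07 with vehicle and 21.7, 18.5 and 26.1 with carmofur, so that every carmofur library was above every vehicle library.

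The fitted HSPB1 difference with carmofur in U251T was 2.08 ± 0.49, and 1.41 to 2.64 with single libraries left out. The lowest value came without vehicle replicate 2 and the highest without vehicle replicate 1. The summed counts, 51 against 21, gave a ratio of 4.68, with a counting interval from 2.76 to 8.19. HSPB1P2, a processed pseudogene that shares 87.9% of aligned bases with HSPB1, received 20, 27 and 4 counts in the U251T vehicle libraries and 15, 13 and 4 with carmofur, against 1 count over all U251P libraries. With the counts of the copies added to HSPB1 the difference was 1.06 in place of 2.08. Between the lines in vehicle HSPB1 differed by -6.60 ± 0.27 on the log2 scale, lower in U251T, a ratio of summed counts of 99.9 with an interval from 65.3 to 162, and by -4.83 with the copies added.

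HSP90AA1 encodes the inducible cytosolic HSP90, a chaperone of kinases and steroid receptors (chr14:102080738-102139699, minus strand). In U251P it was at 7436, 5981 and 6520 CPM with vehicle and at 6725, 6716 and 6504 CPM with carmofur. In U251T the values were 93.8, 73.1 and 63.6 CPM with vehicle and 74.2, 74.2 and 209 CPM with carmofur. The groups overlapped in each line, and U251T carmofur replicate 3 lay far above the other 5 libraries of its line. The fitted difference in U251T was 0.47 ± 0.30 with all libraries and -0.07 without that one.

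HSP90AB1 encodes the constitutive form (chr6:44246166-44253888). In U251P its levels were 4785, 3866 and 4148 CPM with vehicle and 4741, 3719 and 3996 CPM with carmofur, which overlapped. The U251T libraries had 417, 508 and 424 CPM with vehicle and 330, 365 and 414 CPM with carmofur. Every U251T carmofur library lay below every vehicle library, by a margin from 417 to 414 CPM at the nearest, and the fitted difference was -0.31 ± 0.15. Between the lines in vehicle the fitted differences were -6.45 ± 0.22 for HSP90AA1 and -3.28 ± 0.18 for HSP90AB1, both lower in U251T.

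HSPA8, the constitutive cytosolic HSP70 known as HSC70, lies at chr11:123057489-123063230 on the minus strand. It was at 659, 474 and 412 CPM with vehicle and 549, 571 and 409 CPM with carmofur in U251P, with overlap and a fitted difference of 0.02 ± 0.15. The U251T values were 490, 565 and 617 CPM with vehicle and 409, 379 and 362 CPM with carmofur, all carmofur libraries lower. The difference of -0.53 ± 0.13 kept between -0.64 and -0.49 as single libraries were left out. With vehicle the lines overlapped (0.07 ± 0.15).

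HSPA1A, the classic heat-inducible HSP70 gene (chr6:31815464-31817946), was barely counted. It had 1, 2 and 0 counts in the U251P vehicle libraries and 8, 2 and 1 in the carmofur libraries, and 0 in all 6 U251T libraries, where 3 counts would be 1.06 CPM in the deepest library and 7.82 CPM in the shallowest. HSPA1B, which encodes the same type of HSP70, carried the counts of the pair, with 388, 156 and 244 in the U251P vehicle libraries and 573, 342 and 214 with carmofur. Of the counts of HSPA1A, HSPA1B and HSPA1L together, 98.6% to 100% fell outside HSPA1A in each U251P library. Some reads of HSPA1A can be split in counting. Of 426 windows of 75 bases in the last 500 bases of its transcript, 75 also occur in another gene, HSPA1B among them. None of the 426 such windows of HSPA1B occurs in another gene. In U251T HSPA1B had 1 count in vehicle replicate 3, 1 in carmofur replicate 3 and 0 in the other libraries. Levels of HSPA1A alone are thus given as uncertain, and no fold is given for U251T.

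HSPH1, the HSP110 exchange factor that recharges HSP70 (chr13:31134974-31162388, minus strand), showed overlapping groups with carmofur in both lines. It had 1120, 761 and 833 CPM in the U251P vehicle libraries and 1036, 974 and 808 CPM with carmofur. Its U251T levels were 634, 673 and 606 CPM with vehicle and 593, 637 and 613 CPM with carmofur. The fitted differences were 0.08 ± 0.13 in U251P and -0.06 ± 0.13 in U251T, and that between the lines in vehicle was -0.54 ± 0.15.

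DNAJB1, the J-domain protein HSP40 that stimulates the HSP70 ATPase (chr19:14514770-14529770, minus strand), was at 201, 173 and 169 CPM with vehicle and 176, 151 and 162 CPM with carmofur in U251P. The U251T vehicle libraries held 4, 2 and 1 counts of it and the carmofur libraries 3, 2 and 3, too few for a fit of the carmofur difference. On 8 against 7 summed counts the U251T ratio was 2.20, with a counting interval from 0.698 to 7.13. The line difference in vehicle was -6.88 ± 0.30, and the ratio of summed counts was 122 in favour of U251P, with an interval from 58.9 to 303.

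HSPA5, the endoplasmic reticulum HSP70 known as BiP or GRP78, lies at chr9:125234853-125241330 on the minus strand. Its levels in U251P were 1362, 1758 and 1659 CPM with vehicle and 1268, 1096 and 1531 CPM with carmofur, with overlap, and the fitted difference of -0.27 ± 0.13 was the lowest of the 8 members fitted in that line. In U251T it had 1507, 1633 and 1929 CPM with vehicle and 1179, 1405 and 1100 CPM with carmofur. Every carmofur library was below every vehicle library there, with a difference of -0.46 ± 0.14. The lines with vehicle overlapped (0.04 ± 0.15).

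HSPD1, or HSP60, folds proteins of the mitochondrial matrix (chr2:197486581-197516737, minus strand). It stood at 2190, 1705 and 1883 CPM with vehicle and 1907, 1635 and 1723 CPM with carmofur in U251P, and the groups overlapped. In U251T it stood at 713, 799 and 654 CPM with vehicle and 557, 586 and 506 CPM with carmofur, with no overlap. The fitted differences were -0.11 ± 0.10 and -0.40 ± 0.14, and that between the lines in vehicle was -1.45 ± 0.16. HSPE1, the co-chaperonin gene that shares its start region with HSPD1 on the opposite strand, had 11591 counts in all.

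**Figure D2:**
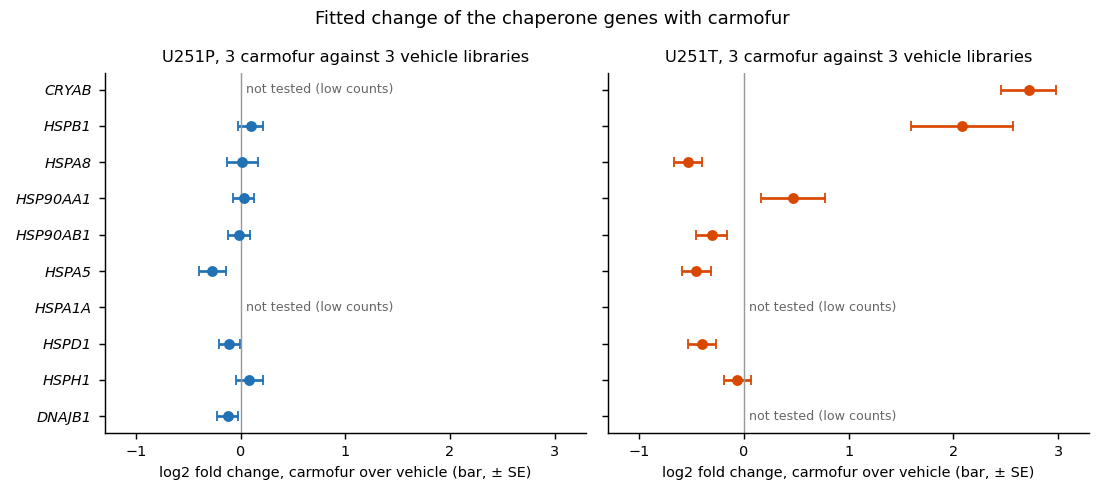
Fitted log2 fold change of each chaperone gene, carmofur over vehicle, with its standard error, for U251P (left) and U251T (right). The U251P values lay between -0.27 and 0.10. In U251T CRYAB (2.72) and HSPB1 (2.08) lay far to the right, and HSPA8 (-0.53), HSPA5 (-0.46), HSPD1 (-0.40) and HSP90AB1 (-0.31) to the left of 0.

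Counted over the members, none of the 8 fitted in U251P reached an adjusted p under 0.05 (edgeR, quasi-likelihood test, Benjamini-Hochberg), where 0% of 11426 genes did (402 had an unadjusted p under 0.05), and DESeq2 also called 0 genes. None of the 8 had groups without overlap, against 8.54% of all genes fitted (3.04% higher and 5.50% lower). In U251T 4 of 8 passed (CRYAB and HSPB1 higher, HSPA8 and HSPA5 lower), where 17.1% of 7204 genes did, 8.88% higher and 8.20% lower. Groups without overlap were seen in 6 of the 8, 2 higher and 4 lower, against 32.3% of all genes (15.8% higher and 16.5% lower). CRYAB, HSPB1 and HSPA8 passed without any single U251T library. HSPA5 did not pass without carmofur replicate 1, carmofur replicate 3 or vehicle replicate 3, nor with all 12 libraries in one fit. HSPD1 passed in addition without carmofur replicate 2 or vehicle replicate 3. It also passed with each other edgeR scaling and filter, with a replicate block and with the copies added. It did not in DESeq2 or with all 12 libraries in one fit. HSP90AB1 passed with the block. The median of the 8 was -0.19 on the log2 scale and that of all genes 0.01. Since the genes were chosen with these differences known, nothing is read from these shares.

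Between the lines in vehicle, 7 of the 9 members fitted passed, 1 higher and 6 lower in U251T, beside 86.9% of 12047 genes (39.3% higher and 47.6% lower). Groups did not overlap for the same 7, where 86.8% of all genes had no overlap (39.9% higher and 46.9% lower). The 2 others were HSPA8 and HSPA5. Their sign in this comparison depended on the scaling, from 0.07 to -0.05 for HSPA8 and from 0.04 to -0.09 for HSPA5 with DESeq2's size factors. This scaling moved the median of all genes from -0.33 to -0.45. Sign and call also depended on the filter and the copies. With at least 10 counts in every library HSPA8 (-0.57) and HSPA5 (-0.60) passed as lower in U251T, where 3737 of 4823 genes passed. With no filter HSPA5 (-0.33) passed as lower, where 13866 of 25294 genes passed. HSPA8 passed as higher with the copies added (1.05). The HSPH1 call was lost without U251P vehicle replicate 1.

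The difference between the lines in the carmofur effect was 2.23 ± 0.73 for CRYAB and 1.97 ± 0.43 for HSPB1, in each case larger in U251T, and between -0.60 and 1.12 for the other 7 members fitted. HSPB1 was the 1 of 9 that passed, where 4.28% of 13070 genes did (1.80% larger and 2.49% smaller in U251T), and it did not pass without U251T vehicle replicate 2 or with the copies added (0.91). The CRYAB value rests on the 45 counts of U251P. It was 1.45 without U251P vehicle replicate 1, which held 11 of them, and 3.42 without U251P carmofur replicate 1, which held 21. CRYAB passed in the latter setting, as it did without U251P vehicle replicate 3 or U251T vehicle replicate 3. With all libraries kept it passed with no filter on low counts and with a replicate block, where HSPA8 passed too.

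Pseudogene copies of several members had many counts beside those of the members in U251T and few in U251P. Pooled over the libraries of U251T, copies held 68.4% of the counts of HSP90AB1 and its copies, 53.5% for HSPB1, 50.0% for HSPA8, 45.9% for HSPD1, 39.1% for HSP90AA1 and 7.91% for HSPA5. The same shares in U251P were 0.171%, 0.0291%, 0.299%, 0.317%, 0.0878% and 0.0378%. CRYAB and HSPH1 had no copy in the table. The copies with the most counts in U251T were HSP90AB2P (3966) and HSP90AB6P (2451), HSPD1P5 (1902) and HSPA8P18 (1127), which had 46, 3, 13 and 2 counts in U251P. HSPA5P1 had 922 counts in U251T and 16 in U251P.

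**Figure D3:**
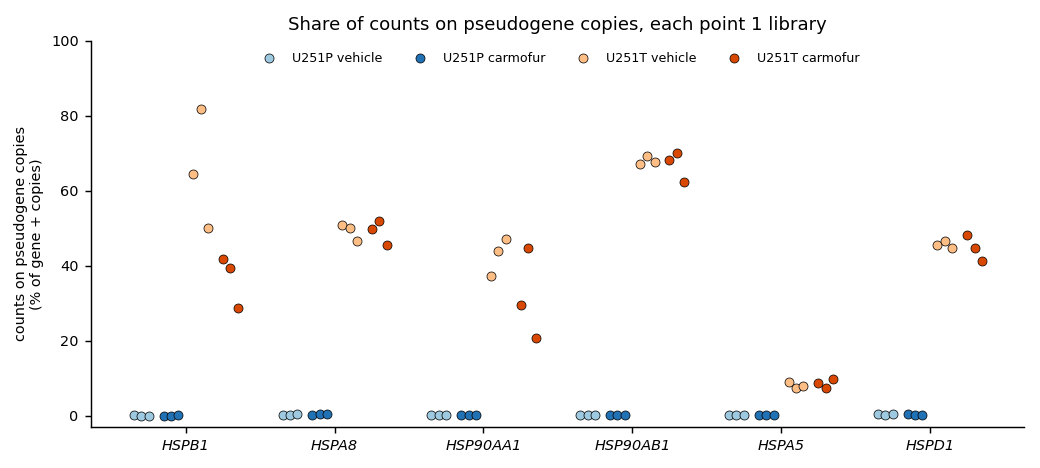
Share of counts on processed pseudogene copies, as a percentage of the counts of the gene and its copies, for the 6 members with copies in both lines. Each point is 1 library. All U251P libraries lay below 0.53%, and the U251T libraries between 7.33% (HSPA5) and 81.8% (HSPB1).

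In each U251T library the copies of HSP90AB1 took 62.3% to 70.0%, of HSPA8 45.5% to 51.9% and of HSPD1 41.2% to 48.2% of the joint counts. For HSPB1 the share was 64.5%, 81.8% and 50.0% with vehicle and 41.7%, 39.4% and 28.6% with carmofur, which did not overlap. For HSP90AA1 it was 37.1%, 44.0% and 47.1% with vehicle and 29.4%, 44.8% and 20.8% with carmofur. Carmofur replicate 3 thus had the lowest share for HSPB1, HSPA8, HSP90AA1, HSP90AB1 and HSPD1 alike and the highest for HSPA5 (9.64%). The copies resembled their parents over 86.1% to 97.4% of aligned bases. Windows of 75 bases from the last 500 bases of the transcripts recurred in other genes for HSPB1 (66 of 426, in HSPB1P1 and HSPB1P2) and HSPA1A, and for none of the other members. These windows cover exact matches at the annotated end of the transcript used for each gene. Reads from other parts of a transcript, and reads that match with mismatches, were not examined.

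With the counts of the copies added, U251T stood higher relative to U251P in vehicle for HSPB1, HSPA8, HSP90AA1, HSP90AB1, HSPA5 and HSPD1. HSP90AB1 went from -3.28 to -1.63, HSPD1 from -1.45 to -0.58 and HSP90AA1 from -6.45 to -5.67, while HSPA8 went from 0.07 to 1.05, higher in U251T. HSPA5 changed from 0.04 to 0.16. Whether the reads on the copies came from transcripts of the copies or of the members was not tested.

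**Figure D4:**
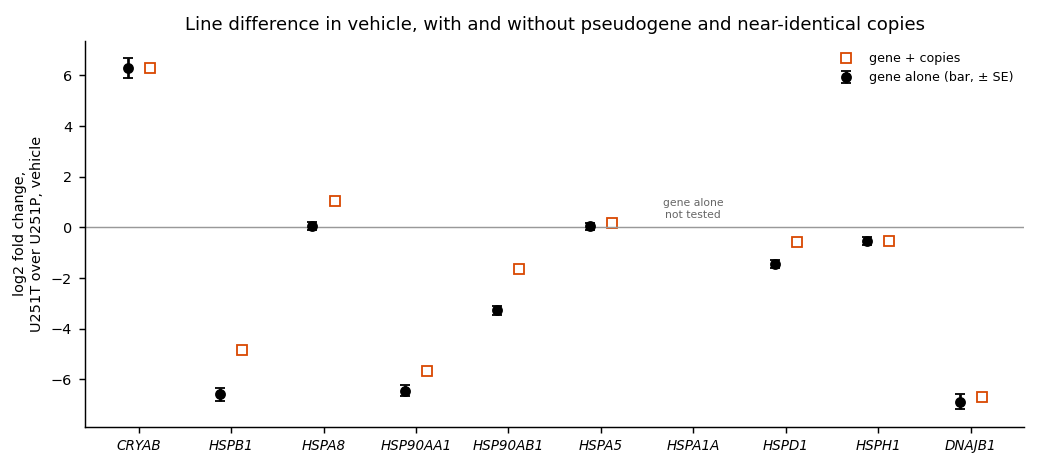
Fitted log2 fold change of each chaperone gene in vehicle, U251T over U251P. Filled points are the gene alone with its standard error, and open squares the fit with pseudogene and near-identical copies added. HSP90AB1 moved from -3.28 to -1.63 and HSPA8 from 0.07 to 1.05, while CRYAB (6.29 and 6.30) and DNAJB1 (-6.88 and -6.69) moved little. HSPA1A alone was too low to fit.

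Levels in U251T relative to the mean of U251P vehicle placed some members near the bottom of the scale. HSPB1 was at 1.91%, 0.48% and 1.59% of that mean in the vehicle libraries and at 4.88%, 4.18% and 5.88% with carmofur. HSP90AA1 was at 0.96% to 1.41% with vehicle and at 1.12%, 1.12% and 3.14% with carmofur, and DNAJB1 at 0.39% to 1.70% and at 1.71%, 1.03% and 4.32%. For comparison, B2M and KRT18, picked after their values were seen because they are abundant in U251P and nearly lacking in U251T, were at 0.05% to 0.32% and 0.45% to 3.88% with vehicle. With carmofur they were at 0.43%, 0.11% and 0.93% and at 5.20%, 0.58% and 8.22%. Carmofur replicate 3 was the highest of the 6 for all of these genes. HSPB1 in carmofur replicates 1 and 2 was above every vehicle library as well. In replicate 1 this was also so for B2M, KRT18 and, narrowly, DNAJB1, and in replicate 2 for none of them. For HSP90AA1 it was so in neither. EGFR and NES, also low in U251T, were above every vehicle library in replicates 2 and 3 but not in replicate 1. EGFR was at 1.52% to 7.58% with vehicle and at 4.43%, 9.29% and 18.6% with carmofur. NES, on 6 counts over the U251T libraries, was at 0% to 0.38% and at 0%, 0.45% and 0.64%. The part that RNA of U251P type could play in these low U251T levels was not tested.

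Of a list of 107 other chaperone genes, co-chaperones and heat shock factors, drawn from textbook families with results of these libraries known, 94 were fitted in U251P and none passed (edgeR, quasi-likelihood test, Benjamini-Hochberg, 2 had an unadjusted p under 0.05, and DESeq2 also called 0). In U251T 13 of 71 passed, 3 higher and 10 lower, which is 18.3% beside 17.1% of all genes. Their median was -0.21 on the log2 scale against 0.01 for all genes. Without U251T carmofur replicate 3 the count was 6, with 3 in each direction.

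The genes that rose with carmofur in U251T were HSPA4L, DNAJB4 and DNAJA4. HSPA4L, a relative of HSPH1 in the HSP110 family, was counted 268, 366 and 133 times in the vehicle libraries and 496, 386 and 207 times in the carmofur libraries, 190 ± 54.3 against 470 ± 97.8 CPM (SD, n = 3). Its log2 fold change was 1.33 ± 0.19 (adjusted p = 8.19e-05 in edgeR's quasi-likelihood test). DNAJB4, a cytosolic relative of DNAJB1, went from 138 ± 47.0 to 396 ± 44.1 CPM (log2 1.58 ± 0.20, edgeR adjusted p = 2.74e-05). DNAJA4 went from 24.2 ± 1.59 to 45.7 ± 3.63 CPM (0.91 ± 0.25, edgeR adjusted p = 0.018), a call that was lost in DESeq2 (adjusted p = 0.105) and in 4 other alternatives.

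The 10 genes that fell in U251T were PTGES3, HSP90B1, FKBP4, HSPA9, HSPA4, TCP1, CCT3, CCT6A, DNAJC21 and PDIA4. PTGES3, the HSP90 co-chaperone p23, fell by 1.11 ± 0.14 on the log2 scale, from 645 ± 77.2 to 302 ± 7.61 CPM (edgeR adjusted p = 2.63e-05). HSP90B1, the endoplasmic reticulum HSP90 known as GRP94, fell by 0.70 ± 0.12, from 1995 ± 137 to 1229 ± 55.6 CPM (edgeR adjusted p = 0.000416). FKBP4, an HSP90-bound immunophilin, was counted 120, 484 and 46 times in the vehicle libraries, 41, 78 and 25 times in the carmofur libraries, and fell by 1.03 ± 0.29 (edgeR adjusted p = 0.0186), but by 0.55 without vehicle replicate 2, where the call was lost (adjusted p = 0.152). HSPA9, the mitochondrial HSP70, and HSPA4 fell by 0.51 ± 0.13 and 0.45 ± 0.12. TCP1, CCT3 and CCT6A of the chaperonin ring fell by 0.57, 0.52 and 0.45, the J-domain gene DNAJC21 by 0.76 and the disulphide isomerase PDIA4 by 0.57. Of these, HSPA4, HSPA9, FKBP4, DNAJC21, TCP1, CCT3 and PDIA4 did not pass without carmofur replicate 3. FKBP4, DNAJC21, TCP1, CCT3, CCT6A and PDIA4 did not pass without carmofur replicate 1.

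**Figure D5:**
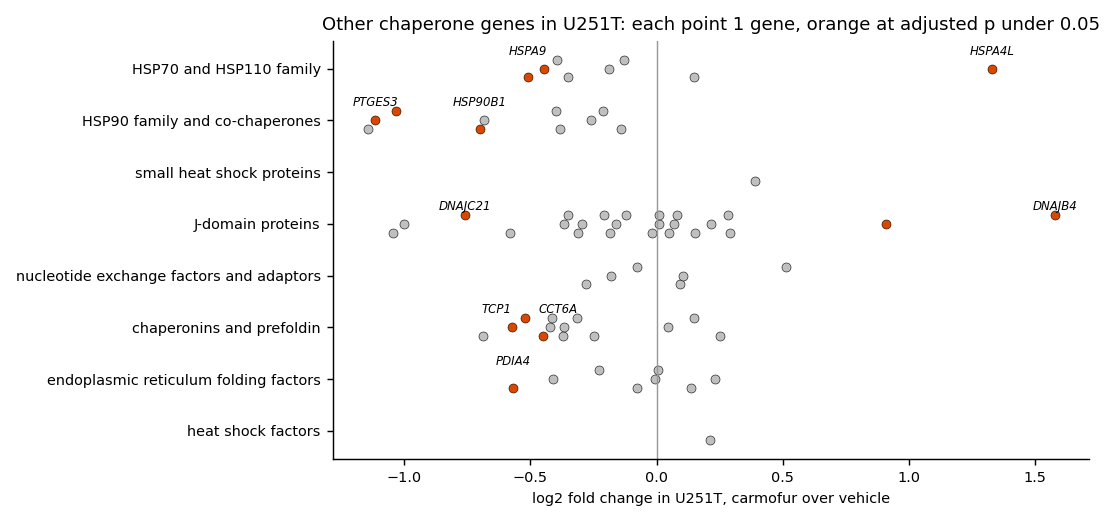
Fitted log2 fold change, carmofur over vehicle in U251T, of the 71 other chaperone genes tested, by family. Each point is 1 gene, in orange where the adjusted p was under 0.05, and the lowest and highest such gene of each family is named. HSPA4L (1.33) and DNAJB4 (1.58) lay to the right, PTGES3 (-1.11) to the left.

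By family in U251T, 3 of 8 genes of the HSP70 and HSP110 family passed (1 higher, 2 lower), 3 of 10 HSP90 genes and co-chaperones (all lower), 3 of 24 J-domain genes (2 higher, 1 lower), 3 of 13 chaperonin and prefoldin genes (all lower) and 1 of 8 endoplasmic reticulum folding factors (lower), where 17.1% of all genes did. As single libraries were left out the counts ranged from 1 (without carmofur replicate 3) to 3 for the HSP70 and HSP110 family, from 2 to 3 for HSP90 and its co-chaperones, from 2 to 4 for J-domain genes, from 0 (without carmofur replicate 1) to 5 for chaperonin and prefoldin genes and from 0 to 2 for the endoplasmic reticulum factors. None of the 6 nucleotide exchange factors and adaptors passed. Nor did the 1 gene fitted of those listed as small heat shock proteins or the 1 heat shock factor gene fitted. None of these had an unadjusted p under 0.05. DESeq2 called 12 of the list in all.

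Between the lines in vehicle 78 of 95 list genes passed, 34 higher and 44 lower in U251T, 82.1% beside 86.9% of all genes. Like HSP90AA1 and DNAJB1, the HSP70 to HSP90 adaptor STIP1 was low in U251T (4, 3 and 1 counts against 1805, 1130 and 1782, log2 -7.64 ± 0.27). So were HSPA1B (-7.81 ± 0.57), the exchange factor BAG3 (-5.83 ± 0.33), DNAJB6 (-5.09 ± 0.37) and the HSP90 adaptor CDC37 (-2.94 ± 0.18). HSF1 was low as well (2, 3 and 2 counts against 310, 178 and 316, -5.26 ± 0.36). Whether its level bears on those of the other genes was not tested. GRPEL1, the exchange factor of mitochondrial HSP70, had 0 counts in the 3 U251T vehicle libraries and 1658 in U251P, at least 190-fold lower when 3 counts over the group are taken as the floor. HSPE1, the partner of HSPD1, differed by -4.44 ± 0.19.

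Others stood higher in U251T, among them HSPA4 (2.45 ± 0.15), HSPA2 (5.96 ± 0.52 on 27, 58 and 14 counts against 0, 2 and 2), HSPA14 (2.16 ± 0.17), DNAJC3 (3.20 ± 0.15), DNAJA2 (2.98 ± 0.16), PFDN4 (2.55 ± 0.15), CCT2 (1.26 ± 0.15) and the endoplasmic reticulum lectin CALR (1.62 ± 0.14). Among chaperonin and prefoldin genes 7 were higher and 8 lower, and PFDN5 (-7.37 ± 0.36) and PFDN4 lay at opposite ends. The small heat shock protein HSPB8 was lower (-3.45 ± 0.71 on 2, 0 and 1 counts against 36, 39 and 24), the opposite direction to CRYAB. HSPB11, listed with that family by its older name and now named IFT25, was lower too (-3.04 ± 0.27). All values named here had adjusted p under 0.05 in edgeR's quasi-likelihood test.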

How the data were processed

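RNA of 12 cell pellets (U251P and U251T, vehicle and carmofur, 3 libraries each) was turned into 3′ tag libraries with the Lexogen QuantSeq forward kit, so that reads mark the ends of polyadenylated transcripts, and the authors deposited whole-number counts of reads per Ensembl gene ID. Per the labels the build was hg38. Mapping and counting used the kit maker's hosted pipeline, whose version, annotation, treatment of reads with several matches and use of strand are not given in the sources used here, and no use of molecular identifiers is stated. Groups were taken from the labels, which do not say whether replicates were separate cultures, so p-values measure only the spread between these samples. All pairs of replicates differed by more than counting noise (chi-square per degree of freedom 1.72 to 11.5).

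Counts were fitted with edgeR 4.0.16 (R 4.3.3; TMM scaling, filterByExpr, quasi-likelihood test, Benjamini-Hochberg adjustment over all genes fitted, threshold 0.05), separately for each line, for the vehicle libraries and, for the difference between lines in the carmofur effect, for all 12. DESeq2 1.42.0, other scalings and filters, a replicate block, libraries left out and copies added to their gene were alternatives. The code was tested on simulated data. An exact permutation test of 3 against 3 libraries cannot go below p = 0.1 and was not used. CPM are counts scaled to a library total of 1e+06. Counting intervals are exact Clopper-Pearson (95%), cover counting error only and do not cover PCR duplicates. Positions and copies come from GENCODE 29, promoters from RefSeq (GRCh38.p14). Copies are genes named as pseudogenes of a member, plus HSPA1B and HSPA1L for HSPA1A.

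The 10 members and the lists of other chaperones (107 genes in 8 families) and cell type markers were chosen with earlier results of these data known. In each family and comparison, up to 3 genes per direction with the smallest p among those past the threshold could be named.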

Additional observations from a re-analysis of the deposited data

Results flagged for a closer look

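For 5 genes of the list of other chaperones the carmofur effect differed between the lines in the interaction term of edgeR's quasi-likelihood test over all 12 libraries, 5.26% of the 95 fitted beside 4.28% of all genes. HSPA4L was 1.11 ± 0.25 log2 units more responsive in U251T (adjusted p = 0.00423, n = 3 a group), with 80.9 ± 15.2 and 89.2 ± 10.4 CPM in U251P (vehicle and carmofur, SD) beside the U251T levels given above. DNAJB4 differed by 1.76 ± 0.27 (adjusted p = 3.74e-05 in edgeR), with 32.1 ± 6.29 and 26.5 ± 5.94 CPM in U251P. BAG3, an exchange factor that links HSP70 to small heat shock proteins such as HSPB8, differed by 2.62 ± 0.60 (edgeR adjusted p = 0.00586) on 1, 4 and 3 counts in the U251T vehicle libraries and 6, 13 and 6 in those given carmofur, beside 593, 328 and 433 and 668, 494 and 292 in U251P. Its call was lost without U251T vehicle replicate 2 or U251T carmofur replicate 2.

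The HSP90 co-chaperones differed in the other direction, PTGES3 by -1.15 ± 0.23 (edgeR adjusted p = 0.00153) and FKBP4 by -1.25 ± 0.32 (edgeR adjusted p = 0.0178). The FKBP4 call was lost without U251T vehicle replicate 2 (-0.69), without U251T carmofur replicate 1 and in DESeq2. Among the 10 members HSPB1 passed the same interaction test, with 1.97, and is given without a p-value because it was chosen with this pattern known. The count of calls among the list was 10 in DESeq2 (4 higher, 6 lower).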

How the results depend on the processing

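No gene passed in U251P, but 19 did with no filter on low counts (3 higher, 16 lower), 1 with the replicate block, and 0 to 1 with single libraries left out. In U251T 1231 genes passed. The replicate block gave 2140, and 837 to 1195 passed with single libraries left out. The other chaperones of U251T numbered 13, with 29 under the block and 6 to 17 with libraries left out. Between the lines 10474 genes passed in vehicle and 3737 with at least 10 counts demanded in every library, a filter that left 4823 of 12047 genes to test and brought the median of all genes from -0.33 to 0.01. HSPA8 was then at -0.57, HSPA5 at -0.60, HSP90AB1 at -3.91 and HSP90B1 at -0.24, which had been at 0.40 in favour of U251T. The line difference in the carmofur effect was called for 560 genes (235 higher, 325 lower), for 630 with library totals alone (333 higher, 297 lower), for 1154 under the block and for 367 to 721 with libraries left out. The lowest count came without U251T carmofur replicate 1. Its count among other chaperones was 5, with 10 in DESeq2, 8 with no filter, 9 with at least 10 counts in every library, 17 under the block and 3 to 9 with libraries left out, the extremes without U251T vehicle replicate 2 and replicate 3. The causes of these changes were not tested. Whether the replicate numbers pair the samples was not tested. Deviations of same-numbered libraries correlated at 0.247, 0.00529 and 0.311 in U251P and at 0.0257, 0.149 and 0.0185 in U251T. Between the lines those of same-numbered libraries correlated at -0.0352 to 0.00571. For libraries with different numbers the values were -0.289 to 0.0622 in U251P, -0.0731 to 0.0372 in U251T and -0.0263 to 0.0275 between the lines. Some libraries correlated best with their own number and others did not. Of the values of members under alternatives, 120 of 120 in U251P and 117 of 119 in U251T moved by less than the spread between libraries. So did 111 of 132 between the lines and 169 of 177 for the line difference in the carmofur effect. Signs turned all the same in 10 values in U251P (HSPA8, HSP90AB1, HSP90AA1 and HSPH1) and 19 between the lines (HSPA8 and HSPA5). For HSP90AA1 the sign turned in 1 value in U251T and 1 of the line difference in the carmofur effect. DNAJB1 and HSPB1 in U251T, and CRYAB and HSPA1A in U251P, are limited by depth, where 3 counts correspond to 0.472 to 0.910 CPM in U251P and 1.06 to 7.82 CPM in U251T.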
